A study of Mus musculus with 6 samples.

Results

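The 42 genes described here encode the machinery that starts, builds and loads the autophagosome, and the proteins that mark mitochondria for removal by autophagy. They were chosen by gene symbol, and all 42 were found among the 18182 genes listed in at least 1 of the 6 libraries. LLC-RFP cells, from the mouse cancer line Lewis lung carcinoma (LLC) and marked with red fluorescent protein, were injected under the skin of wild-type C57BL/6 mice, either without other cells (LLC alone, 3 libraries) or together with bone marrow-derived mesenchymal stem cells (LLC with BMSCs, 3 libraries). The BMSCs were mouse cells of the same strain, bought from a supplier. Red fluorescent cells were sorted from the primary tumours by flow cytometry and their mRNA was sequenced, in order to learn how BMSCs change the transcripts of the cancer cells. The labels give no age for these mice, and the age and sex in the study's methods are stated for its tumour growth experiment. Nothing in the labels says that the 3 libraries of a group came from separate mice. The p-values below therefore measure only the spread between these libraries, which may be technical.

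Autophagy encloses part of the cytoplasm in a double membrane, the autophagosome, which then fuses with a lysosome that digests the contents. The ULK kinase complex and a phosphatidylinositol 3-kinase (PI3-kinase) complex start the membrane, and lipid transfer proteins and ATG9 vesicles extend it. Small ubiquitin-like proteins of the LC3 and GABARAP families are cut by ATG4 proteases and coupled to the membrane lipid by conjugation enzymes, and cargo receptors such as p62 bind them and bring the cargo in. In mitophagy the cargo is a mitochondrion, which BNIP3, NIX and FUNDC1 mark from its outer membrane and which the kinase PINK1 marks when it is damaged. TFEB and TFE3 are transcription factors that act on genes of autophagy and of the lysosome.

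The libraries held between 33476347 and 46189113 estimated counts. Of the listed genes, 13353 passed the filter on low counts and were tested, with a biological coefficient of variation of 9.92% over the libraries. Of all genes tested, 31.5% were called higher and 31.3% lower in LLC with BMSCs at an adjusted p under 0.05, with a median log2 fold change of 0.012. LLC alone replicate 3 stood apart from the other libraries of its group by transcript length. Its deviation from the other LLC alone libraries ran against gene length with a Spearman correlation of -0.704 across 13353 genes, which share these libraries and are not independent. Values without it are given for the members described by library and for the gene lists. The sorted cells were also checked for RNA of other cell types. Epcam and Cdh1, defining epithelial genes, were at no more than 0.0333 FPKM in either group on average. Krt7, Krt19 and Cldn7 averaged no more than 0.0433 FPKM, and Krt18 averaged 0.0833 FPKM in LLC alone and 0.653 in LLC with BMSCs. Of the epithelial genes checked only the keratin Krt8 was abundant, at 95.3 FPKM in LLC alone and 110.0 in LLC with BMSCs.

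All 42 members passed the filter. In the comparison of LLC with BMSCs against LLC alone, 11 members were called higher (26.2%, beside 31.5% of all genes) and 16 lower (38.1%, beside 31.3%), while 15 were not called. In either direction this was 64.3% of the members, beside 62.9% of all genes tested, so the share of members that moved was near that of any gene. Their median log2 fold change was -0.11, and the values ran from -2.07 for Sqstm1 to 1.77 for Bnip3. An adjusted p under 0.05 together with a log2 fold change of at least 0.5 in size was reached by 14 members, of which 5 rose and 9 fell, beside 36.7% of all genes. At a size of at least 1, 5 members passed (Bnip3 and Atg4c upward, Sqstm1, Gabarap and Gabarapl1 downward), beside 15.8% of all genes. The FPKM ranges of the groups did not overlap for 31 members, beside 70.6% of all genes tested. Every p-value here is from edgeR's quasi-likelihood test, adjusted by Benjamini-Hochberg over all genes tested, and every log2 fold change is of LLC with BMSCs over LLC alone on estimated counts.

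**Figure D1:**
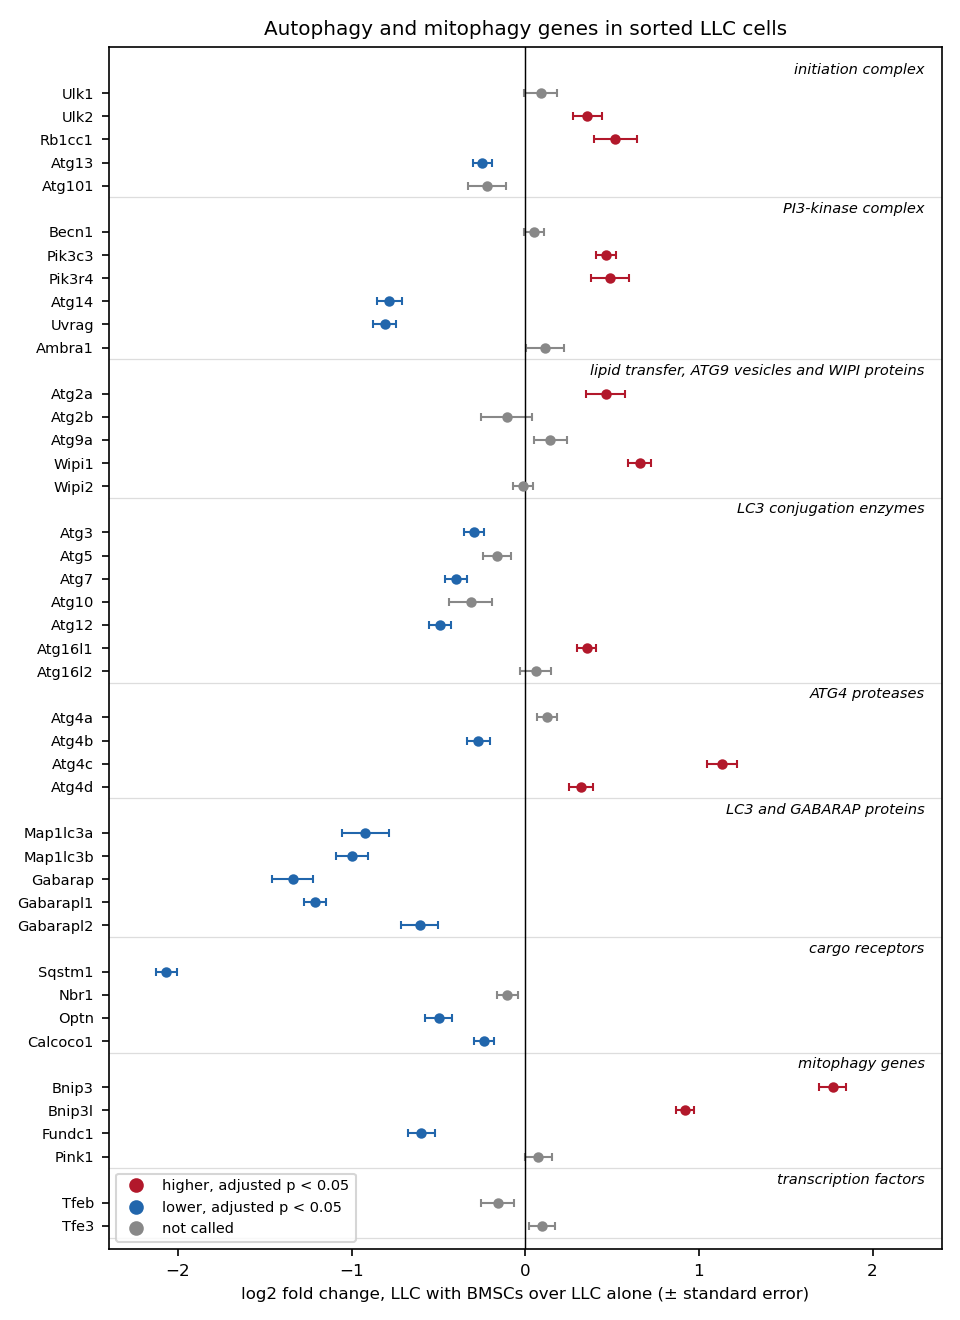
Log2 fold change of each of the 42 members (x axis, LLC with BMSCs over LLC alone, 3 libraries per group), grouped by role, with bars for the standard error and colours for the call at an adjusted p under 0.05. All 5 LC3 and GABARAP genes lie to the left of 0, and the farthest points are Sqstm1 at -2.07 and Bnip3 at 1.77.

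The largest change among the members was that of Sqstm1 (NCBI gene 18412), which encodes p62, a receptor that carries ubiquitin-tagged cargo to LC3. Its level was 694, 717 and 760 FPKM (sequenced fragments corrected for transcript length and library total, as the authors give them) in the LLC alone libraries. In LLC with BMSCs it was 170, 181 and 176 FPKM. The groups lay far apart, and the spread within each was small beside the gap. On counts the log2 fold change was -2.07 ± 0.061 (SE, n = 3 in each group, edgeR adjusted p = 3.03e-07), which is 0.239 times the level of LLC alone. Without LLC alone replicate 3 it was -2.02. Sqstm1 was the most abundant member in both groups, at rank 115 of all genes by FPKM in LLC alone and at rank 391 in LLC with BMSCs. Its counts alone made up 40.2% to 42.3% of the counts of all 42 members in LLC alone, and 14.1% to 14.9% in LLC with BMSCs. The summed level of the members fell from between 3384 and 3535 CPM (counts scaled to the library total) to between 2310 and 2334 CPM. Without Sqstm1 the sums were 2024 to 2040 CPM and 1973 to 2003 CPM, so Sqstm1 carried most of that difference.

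Of the 2 Sqstm1 transcripts in the files, NM_011018 held 86.1% ± 0.837 of the gene's FPKM in LLC alone and 83.1% ± 0.254 in LLC with BMSCs (SD, n = 3), without overlap, and NM_001290769 held the rest. Both transcripts were lower in LLC with BMSCs, so the fall was not that of a single transcript. An exon of Sqstm1 overlaps an exon of Mrnip on the opposite strand in the GENCODE annotation. Mrnip, listed in the files as 3010026O09Rik, held 340 normalized counts in LLC alone and 235 in LLC with BMSCs, far under the 61020 and 14560 normalized counts of Sqstm1. The counting is not stated to use strand, so reads of an overlap cannot be assigned to either gene.

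The other cargo receptors moved little beside Sqstm1. Optn, which encodes optineurin, a receptor for ubiquitin-tagged mitochondria and bacteria, fell by 0.50 on the log2 scale (3.49 to 2.50 FPKM, edgeR adjusted p = 0.00101). Calcoco1, a receptor of the endoplasmic reticulum and Golgi, fell by 0.24 (9.23 to 7.93 FPKM, adjusted p = 0.00834). Nbr1, which shares cargo with p62, was at 7.49 and 6.80 FPKM and did not pass the test (log2 fold change -0.10, adjusted p = 0.163). The FPKM of Sqstm1 was thus 96.8 ± 6.72 times that of Nbr1 in LLC alone and 25.8 ± 0.252 times in LLC with BMSCs (SD, n = 3).

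All 5 measured LC3 and GABARAP genes fell, and none of their groups overlapped. Of all genes tested, 31.3% were called lower and 70.6% had FPKM ranges without overlap between the groups. Gabarap (NCBI gene 56486), whose product acts in the closing of the autophagosome and in its fusion with the lysosome, was at 139, 124 and 171 FPKM in LLC alone. It was at 58.2, 57.8 and 58.4 FPKM in LLC with BMSCs. The LLC alone libraries were widely spread, with replicate 3 the highest, and the LLC with BMSCs libraries lay within 1 FPKM of each other. The log2 fold change was -1.34 ± 0.12 (SE, edgeR adjusted p = 4.67e-05).

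Gabarapl1 (NCBI gene 57436), a close relative of Gabarap, was at 75.3, 74.0 and 81.4 FPKM in LLC alone and at 33.1, 34.6 and 33.5 FPKM in LLC with BMSCs. Its log2 fold change was -1.21 ± 0.063 (adjusted p = 3.7e-06). Map1lc3b (NCBI gene 67443), which encodes LC3B, the protein that is most used as a marker of autophagosomes, was at 68.0, 67.1 and 79.5 FPKM in LLC alone. In LLC with BMSCs it was at 32.8, 37.0 and 39.3 FPKM, with a log2 fold change of -0.998 ± 0.095 (adjusted p = 7.37e-05). As for Gabarap, replicate 3 was the highest of the LLC alone libraries for both genes, and the gap between the groups was wider than the range within either.

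Gabarapl2 (NCBI gene 93739), whose product is also known as GATE-16, fell the least. It was at 52.8, 53.1 and 66.6 FPKM in LLC alone and at 34.9, 40.0 and 40.2 FPKM in LLC with BMSCs. The log2 fold change was -0.61 ± 0.11 (adjusted p = 0.00165). Map1lc3a (NCBI gene 66734), which encodes LC3A, was the least abundant of the family, at 3.36, 2.62 and 3.06 FPKM in LLC alone. It was at 1.69, 1.67 and 1.50 FPKM in LLC with BMSCs, with a log2 fold change of -0.92 ± 0.14 (adjusted p = 7.36e-04), and it became the lowest of the 42 members there.

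The summed FPKM of the 5 genes was 354 ± 42.6 in LLC alone and 168 ± 6.61 in LLC with BMSCs (SD, n = 3). Within that sum, the share of Gabarap was 40.8% ± 2.02 in LLC alone and 34.6% ± 1.42 in LLC with BMSCs, without overlap. Gabarapl2 went from 16.2% ± 0.571 to 22.8% ± 0.927, also without overlap. The shares of Map1lc3b (20.3% and 21.6%), Gabarapl1 (21.8% and 20.1%) and Map1lc3a (0.857% and 0.965%) overlapped between the groups. Gabarap remained the largest contributor of the family in both groups.

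The log2 fold changes also went with transcript length, and these genes have short transcripts. Across all 13353 genes tested, the log2 fold change had a Spearman correlation of 0.284 with transcript length, and across the 42 members of 0.429, both a description across genes of the same 6 libraries. Of the 2671 genes with the shortest transcripts 46.5% were called lower, beside 14.4% of the 2671 with the longest. Once the trend over length had been taken out of every library, the log2 fold changes were -0.30 for Gabarapl2, -0.63 for Map1lc3a, -0.84 for Map1lc3b, -1.06 for Gabarap and -1.07 for Gabarapl1. Every LC3 and GABARAP gene was still called lower, with the largest shift for Gabarapl2, from -0.61 to -0.30, and for Map1lc3a. The same step left Sqstm1 at -1.96. Without LLC alone replicate 3, in which 4 of the 5 genes were highest, the values were -0.48 for Gabarapl2, -0.91 for Map1lc3a and Map1lc3b, -1.16 for Gabarapl1 and -1.20 for Gabarap, all called. Estimated counts of Gabarap were not whole in any of the 6 libraries, and the cause was not tested. Map1lc3b shares an exon overlap with Zcchc14 on the opposite strand, which held 3024 normalized counts in LLC alone and 3226 in LLC with BMSCs and so did not fall with it.

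**Figure D2:**
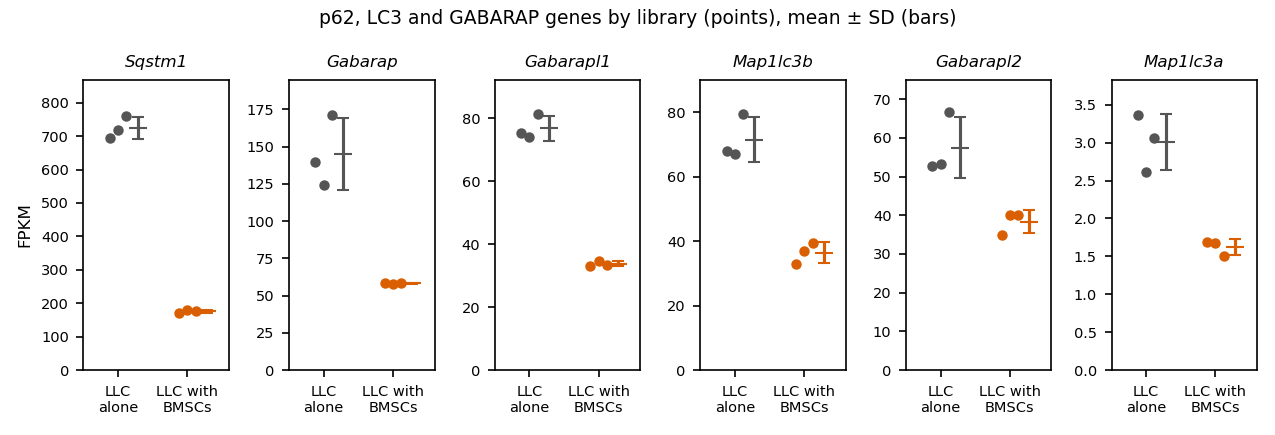
FPKM (y axes, each from 0) of Sqstm1 and the 5 LC3 and GABARAP genes in each library (points, LLC alone in grey and LLC with BMSCs in orange), with the mean and SD of 3 libraries beside them. The groups overlap for none of the 6 genes, as is so for 70.6% of all genes tested. The mean falls from 724 to 176 FPKM for Sqstm1 and from 145 to 58.1 FPKM for Gabarap.

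To show what lies before the genes that moved most, promoter sequence is given for Sqstm1, for Gabarap, Gabarapl1 and Map1lc3b, the LC3 and GABARAP genes with the largest falls, and for the 2 members with the largest rises. The 150 bases before the annotated start are printed 5′ to 3′ on the gene's strand, from RefSeq on GRCm38.p6. Capitals mark ACGTG or GCGTG on either strand, the letters of the hypoxia response element, and TGACNNNGC, the core letters of the antioxidant response element that NRF2 binds, was searched in the same way and was found in none of these. ACGTG also lies within CACGTG, the core letters that TFEB and TFE3 bind.

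Sqstm1, chr11:50210821-50210970, minus strand: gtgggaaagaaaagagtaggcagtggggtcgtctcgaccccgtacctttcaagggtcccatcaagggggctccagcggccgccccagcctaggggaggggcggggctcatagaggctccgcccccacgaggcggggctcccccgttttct
Gabarap, chr11:69991220-69991369, plus strand: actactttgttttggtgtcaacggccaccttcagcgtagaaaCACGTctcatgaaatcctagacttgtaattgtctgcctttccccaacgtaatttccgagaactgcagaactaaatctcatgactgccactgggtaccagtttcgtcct
Gabarapl1, chr6:129533042-129533191, plus strand: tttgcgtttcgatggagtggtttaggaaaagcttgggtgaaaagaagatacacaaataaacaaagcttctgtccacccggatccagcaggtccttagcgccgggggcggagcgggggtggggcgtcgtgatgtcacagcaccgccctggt
Map1lc3b, chr8:121590288-121590437, plus strand: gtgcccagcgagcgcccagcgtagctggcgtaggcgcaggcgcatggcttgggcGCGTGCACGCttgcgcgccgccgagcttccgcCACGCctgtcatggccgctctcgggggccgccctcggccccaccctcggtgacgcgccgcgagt
Bnip3, chr7:138909507-138909656, minus strand: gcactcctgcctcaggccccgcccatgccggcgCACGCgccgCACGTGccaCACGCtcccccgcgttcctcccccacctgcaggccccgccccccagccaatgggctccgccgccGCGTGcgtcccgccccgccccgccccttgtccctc
Atg4c, chr4:99193784-99193933, plus strand: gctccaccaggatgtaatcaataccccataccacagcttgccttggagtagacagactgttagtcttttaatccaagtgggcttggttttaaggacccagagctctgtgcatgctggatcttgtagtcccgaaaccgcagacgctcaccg

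The Bnip3 window held the marked letters at 117, 108, 107, 99 and 35 bases before the start, where those at 108 and 107 form CACGTG. Map1lc3b held them at 96, 91 and 64 bases and Gabarap at 108 bases before the start, whereas the printed windows of Sqstm1, Gabarapl1 and Atg4c held none. Atg4c has 2 windows, of which only the first listed is printed, and it is among the members with GCGTG within 250 bases. Over the full 250 bases before the start, 35 of the 42 members had a window. A member was counted if any of its windows held the letters, while the share beside it is of single windows. The shares are thus of unlike units, and a member with several windows is more easily counted. CACGTG was found for 4 of them (11.4%), namely Bnip3, Atg3, Atg5 and Atg7, beside 6.02% of all 32851 windows of the table. ACGTG was found for 13 members (37.1%, beside 16.6% of all windows) and GCGTG for 22 (62.9%, beside 28.2%). Of the members with ACGTG, 2 were called higher (Bnip3 and Pik3r4), 5 lower (Atg3, Atg7, Gabarap, Gabarapl2 and Uvrag) and 6 were not called. Over all 42 members 26.2% were called higher and 38.1% lower, beside 31.5% and 31.3% of all genes tested. TGACNNNGC was found for 2 members, Ulk2 and Atg13 (5.71%, beside 10.2%). These are matches of letters and were not measured as binding.

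The genes that mark mitochondria moved in both directions. Bnip3 (NCBI gene 12176), which encodes a receptor in the outer mitochondrial membrane that binds LC3 and is known to be induced by low oxygen, was at 33.0, 32.4 and 36.4 FPKM in LLC alone. In LLC with BMSCs it was at 109, 124 and 120 FPKM. Each LLC with BMSCs library was far above every LLC alone library. The log2 fold change was 1.77 ± 0.076 (SE, edgeR adjusted p = 1.55e-06), the largest rise of the 42 members.

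Bnip3l (NCBI gene 12177), which encodes the related receptor NIX, was at 31.6, 32.6 and 32.2 FPKM in LLC alone and at 60.5, 61.6 and 62.8 FPKM in LLC with BMSCs. Both groups were tight, and the log2 fold change was 0.92 ± 0.052 (adjusted p = 5.54e-06). Bnip3 and Bnip3l were at nearly the same FPKM in LLC alone, with a ratio of 1.06 ± 0.0686, and the ratio was 1.91 ± 0.104 in LLC with BMSCs (SD, n = 3). By FPKM the pair moved from ranks 8 and 9 of the members in LLC alone to ranks 2 and 3 in LLC with BMSCs, behind Sqstm1. As for Gabarap, the estimated counts of Bnip3l were not whole in any library. Without LLC alone replicate 3 the log2 fold changes were 1.83 for Bnip3 and 0.93 for Bnip3l.

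Fundc1 (NCBI gene 72018), a further receptor of the outer mitochondrial membrane that acts under low oxygen, went the other way. It was at 15.1, 15.4 and 17.7 FPKM in LLC alone and at 10.3, 11.3 and 10.8 FPKM in LLC with BMSCs. The log2 fold change was -0.60 ± 0.079 (adjusted p = 3.89e-04), without overlap between the groups, and -0.52 without LLC alone replicate 3. Pink1 was at 13.9 ± 1.30 FPKM in LLC alone and 14.8 ± 0.320 in LLC with BMSCs (SD, n = 3), overlapped between the groups and was not called (log2 fold change 0.07, adjusted p = 0.426). It was called higher without LLC alone replicate 3, at 0.15 and an adjusted p of 0.0251.

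**Figure D3:**
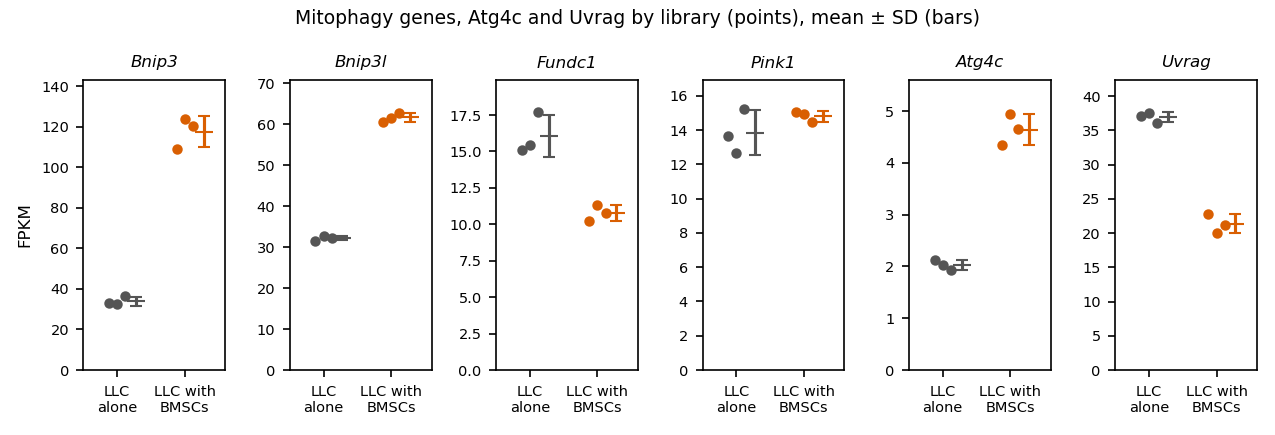
FPKM (y axes, each from 0) of the 4 mitophagy genes, Atg4c and Uvrag in each library (points, LLC alone in grey and LLC with BMSCs in orange), with the mean and SD of 3 libraries beside them. Bnip3 rises from 34.0 to 118 FPKM and Bnip3l from 32.1 to 61.6, Fundc1 and Uvrag are lower in LLC with BMSCs, and the groups overlap for Pink1.

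Of the 17 other genes of mitochondrial quality control (the ligase Parkin, deubiquitinases and the fission and fusion proteins), 4 rose and 7 fell, beside 31.5% and 31.3% of all genes tested, and the median log2 fold change was -0.11. When any 1 LLC with BMSCs library was left out, 2 rose, and when LLC alone replicate 3 was, 6 rose and 8 fell. Fis1, which encodes an adaptor of mitochondrial fission, fell by 0.87 (adjusted p = 4.1e-04) from 70.1 to 38.4 FPKM. Fbxo7, which encodes a partner of Parkin, fell by 0.57 (adjusted p = 4.06e-04). Parl, the protease that cuts PINK1, and Tomm20, a receptor for mitochondrial import, fell by 0.56 and 0.51. The 17 hypoxia-induced genes of a list that leaves out Bnip3 and Bnip3l gave 11 that rose and 1 that fell, beside 31.5% and 31.3% of all genes, with a median log2 fold change of 0.62. Without LLC alone replicate 3 the counts were 12 and 1, and when LLC alone replicate 1 or any 1 LLC with BMSCs library was left out, 0 fell and 10 to 11 rose. Egln3, an oxygen sensor that marks HIF for destruction, rose from 55.8 to 179 FPKM (log2 fold change 1.66, adjusted p = 5.95e-07). Adm, the vessel hormone adrenomedullin, rose from 14.8 to 45.1 FPKM (1.59, adjusted p = 1.96e-06). Slc2a1, a glucose transporter, and Pdk1, a kinase that keeps pyruvate out of mitochondria, rose by log2 fold changes of 1.08 and 1.07. Vegfa was the gene of the list that fell (-0.17, edgeR adjusted p = 0.0239). Car9, Ndrg1, Pgk1, Pfkfb3 and Pfkfb4 were not called, with log2 fold changes from -0.0003 to 0.14. The rise of Bnip3 was thus accompanied by a rise of most but not all genes of that list, and their link was not tested.

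The 4 ATG4 proteases, which trim LC3 and GABARAP proteins before coupling and cut them from the membrane afterwards, did not move together. Atg4c (NCBI gene 242557) was the lowest of all members in LLC alone, at 2.12, 2.02 and 1.94 FPKM. It was at 4.34, 4.94 and 4.65 FPKM in LLC with BMSCs, clear of the other group. The log2 fold change was 1.13 ± 0.086 (SE, edgeR adjusted p = 2.37e-05), and 1.09 without LLC alone replicate 3. Atg4d rose less (5.07 to 6.44 FPKM, log2 fold change 0.32, adjusted p = 0.00452), and its exons overlap those of Kri1 on the opposite strand, which held 2676 and 2709 normalized counts. Atg4b, which encodes the most active of the proteases, fell by 0.27 (23.3 to 19.4 FPKM, adjusted p = 0.0089). Atg4a did not pass the test (0.13, adjusted p = 0.0992). The FPKM of Atg4c was 0.0873 ± 0.00855 times that of Atg4b in LLC alone and 0.240 ± 0.0230 times in LLC with BMSCs (SD, n = 3), so Atg4b stayed the more abundant. The transcript NM_001145967 held 47.6% ± 16.4 of the FPKM of Atg4c in LLC alone and 69.9% ± 7.56 in LLC with BMSCs. By library its share was 38.2%, 38.1% and 66.5% in LLC alone and 63.6%, 67.8% and 78.3% in LLC with BMSCs. The groups thus overlapped only through LLC alone replicate 3. On average this transcript went from 0.957 to 3.25 FPKM and the other, NM_175029, from 1.07 to 1.39 FPKM. A shift between the transcripts was not tested.

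Of the 7 genes for the enzymes and partners that couple LC3 to the membrane, 3 fell (42.9%, beside 31.3% of all genes), 1 rose (14.3%, beside 31.5%) and 3 were not called, with a median log2 fold change of -0.30, and none reached a size of 0.5. Atg12, a ubiquitin-like protein that is coupled to ATG5, fell by 0.49 (19.8 to 14.3 FPKM, adjusted p = 3.43e-04). Atg7, the activating enzyme for both coupling reactions, fell by 0.40 (8.14 to 6.31 FPKM, adjusted p = 9.87e-04). Atg3, the enzyme that hands LC3 to the lipid, fell by 0.30 (16.2 to 13.4 FPKM, adjusted p = 0.0031), with -0.19 once the length trend was removed. Atg16l1, which places the coupling complex on the membrane, rose by a log2 fold change of 0.35 (16.4 to 21.2 FPKM, adjusted p = 7.3e-04). Its partner Atg5 (-0.16, adjusted p = 0.107) and the enzyme Atg10 (-0.32, adjusted p = 0.0593) did not pass. For Atg16l2 the units disagreed, since its FPKM was 2.25 in LLC alone and 1.91 in LLC with BMSCs without overlap while its counts gave a log2 fold change of 0.06 (adjusted p = 0.591). Its transcript BGI_novel_T007609, assembled by the authors' pipeline, held 8.90% of the gene's FPKM in LLC alone and 22.8% in LLC with BMSCs. Exons of Atg16l2 overlap those of Fchsd2 on the opposite strand, which held 599 normalized counts in LLC alone and 937 in LLC with BMSCs. Atg16l2 itself held 235 and 245, and the part of this overlap was not tested.

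Within the PI3-kinase complex, 2 subunits of the shared core rose and the 2 exchangeable subunits fell. Pik3c3, the lipid kinase VPS34, rose by a log2 fold change of 0.46 (9.40 to 13.2 FPKM, adjusted p = 2.69e-04). Pik3r4, its regulatory subunit VPS15, rose by 0.49 (8.60 to 12.2 FPKM, adjusted p = 0.00546). That rise was 0.37 without LLC alone replicate 3 and 0.33 with the length trend removed, and was called in both. Becn1, which encodes the subunit Beclin 1, was at 49.4 and 51.9 FPKM and was not called (0.05, adjusted p = 0.456). Atg14 (NCBI gene 100504663), the subunit that directs the complex to the forming autophagosome, was at 5.92, 6.69 and 6.06 FPKM in LLC alone and at 3.78, 3.61 and 3.61 FPKM in LLC with BMSCs. Its log2 fold change was -0.78 ± 0.072 (adjusted p = 6.3e-05), and -0.79 without LLC alone replicate 3.

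Uvrag (NCBI gene 78610), the subunit that takes the place of ATG14 in the endosomal form of the complex, was at 37.1, 37.5 and 36.2 FPKM in LLC alone. It was at 22.9, 20.1 and 21.2 FPKM in LLC with BMSCs, with a log2 fold change of -0.81 ± 0.067 (adjusted p = 3.6e-05) that was -0.82 without LLC alone replicate 3. Both subunits were lower in every LLC with BMSCs library than in any LLC alone library. Ambra1, a Beclin 1 partner, was not called (0.11, adjusted p = 0.401).

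In the initiation complex, Rb1cc1 (NCBI gene 12421), which encodes the scaffold FIP200, was at 6.22, 7.16 and 4.90 FPKM in LLC alone. It was at 8.84, 8.75 and 8.92 FPKM in LLC with BMSCs. The log2 fold change was 0.52 ± 0.12 (adjusted p = 0.0069), the LLC alone libraries were widely spread, and replicate 3 was the lowest. Without that library the log2 fold change was 0.39, and with the length trend removed it was 0.27. Ulk2, a kinase of the complex, rose by 0.36 (adjusted p = 0.00695) or by 0.14 with the length trend removed, and Atg13, which links the kinase to the scaffold, fell by 0.25 (adjusted p = 0.00518). The kinase Ulk1 (5.96 and 6.43 FPKM, log2 fold change 0.09, adjusted p = 0.429) and the stabilizing subunit Atg101 (17.4 and 15.1 FPKM, -0.22, adjusted p = 0.11) were not called.

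Among the genes that extend the membrane, Wipi1 (NCBI gene 52639), which encodes a protein that reads the lipid made by VPS34, was at 15.9, 16.0 and 14.0 FPKM in LLC alone. It was at 24.1, 25.0 and 24.4 FPKM in LLC with BMSCs, clear of the other group, with a log2 fold change of 0.66 ± 0.065 (adjusted p = 9.25e-05) that was 0.60 without LLC alone replicate 3. Its relative Wipi2, which recruits ATG16L1, was at 25.3 and 25.5 FPKM (-0.01, adjusted p = 0.863). By FPKM, Wipi1 was below Wipi2 in each LLC alone library and nearly level with it in LLC with BMSCs. Atg2a, a lipid transfer protein, rose by a log2 fold change of 0.46 (5.48 to 7.65 FPKM, adjusted p = 0.00822), which was 0.23 with the length trend removed. Its paralog Atg2b (-0.11, adjusted p = 0.542) and the lipid scramblase Atg9a (0.14, adjusted p = 0.213) were not called. On the opposite strand, exons of Gskip (884 and 604 normalized counts) overlap those of Atg2b, and exons of Ankzf1 (1046 and 1776) those of Atg9a. Atg2b has the longest transcript of the members and was called lower with the length trend removed (-0.45, adjusted p = 1.37e-05) and without LLC alone replicate 3 (-0.27, adjusted p = 0.0039).

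The transcription factors were not called. Tfeb was at 2.16 and 1.95 FPKM (log2 fold change -0.16, adjusted p = 0.177) and Tfe3 at 16.3 and 17.7 FPKM (0.10, adjusted p = 0.275), and both overlapped between the groups in FPKM. Their activity is set mainly by where the proteins are in the cell, which RNA does not show. Of 6 tested genes among 8 other transcription factors that act on autophagy genes, Foxo4 rose (4.05 to 5.54 FPKM, log2 fold change 0.43, adjusted p = 7.76e-04) and Atf4, a factor of the amino acid and stress response, fell (640 to 396 FPKM, -0.71, adjusted p = 1.05e-04). Of the 6, 1 rose and 2 fell without LLC alone replicate 3.

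**Figure D4:**
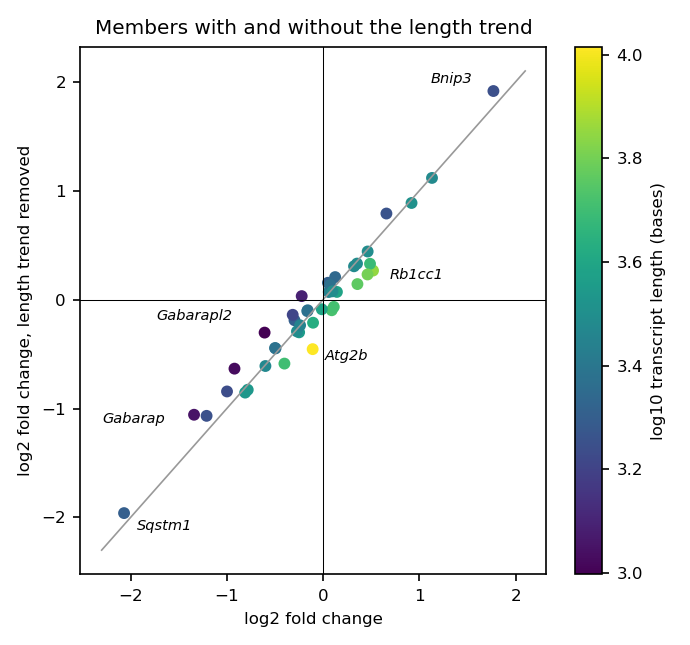
Log2 fold change of each of the 42 members (x axis) against the same value with each library's trend over transcript length removed (y axis), coloured by log10 transcript length in bases, with the line of equality. Short transcripts such as Gabarap and Gabarapl2 lie above the line and long ones such as Atg2b and Rb1cc1 below it. Sqstm1 goes from -2.07 to -1.96 and Bnip3 from 1.77 to 1.92.

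Of 27 genes of the lysosomal membrane, proton pump and hydrolases, 22 fell and 1 rose (beside 31.3% and 31.5% of all genes tested), with a median log2 fold change of -0.56 beside 0.012 over all genes tested. Without LLC alone replicate 3, and without LLC alone replicate 2, 22 fell and 2 rose. Their summed level was lower in every LLC with BMSCs library, from between 3970 and 4050 CPM to between 2670 and 2730 CPM. Atp6v1h, Atp6v0d1 and Atp6v0a1, subunits of the proton pump that acidifies the lysosome, had log2 fold changes of -1.34, -1.23 and -1.13 (adjusted p = 4.36e-06, 7.91e-06 and 2.25e-05). The hydrolase Gla, alpha-galactosidase A, fell by 0.96 (adjusted p = 5.79e-06). Of 22 other genes of autophagosome formation and fusion, 10 fell, 3 rose and the others were not called, beside 31.3% and 31.5% of all genes, with a median of -0.09. The counts were 11 and 6 without LLC alone replicate 3. Vamp8, a SNARE for the fusion of autophagosome and lysosome, fell from 107 to 54.0 FPKM (log2 fold change -1.003, adjusted p = 1.14e-04). The small GTPase Rab7 fell by 0.64, the lipid-binding Wdr45 by 0.68 and the tether Epg5 by 0.68, the last with an adjusted p of 0.0116.

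Of 33 tested genes of mTORC1, AMPK and nutrient sensing, 17 fell and 5 rose, beside 31.3% and 31.5% of all genes, and the median log2 fold change was -0.25. The counts were 20 and 5 without LLC alone replicate 3. The number that rose was 3 when LLC alone replicate 1 or LLC with BMSCs replicate 1 or 2 was left out, and 2 when LLC with BMSCs replicate 3 was. Of the 4 genes named here, 3 act to switch on mTORC1, the kinase that holds autophagy back, and Sesn2 acts against it. Rheb, the GTPase that activates mTORC1, fell from 168 to 72.4 FPKM (-1.23, adjusted p = 1.21e-05). Lamtor4 and Lamtor3, parts of the scaffold that holds mTORC1 on the lysosome, had log2 fold changes of -1.18 and -1.17. Sesn2, which inhibits mTORC1 when leucine is low, fell from 49.1 to 20.9 FPKM (-1.25, adjusted p = 2.37e-05). Of 17 other selective autophagy receptors and adaptors, 11 fell and 4 rose, beside 31.3% and 31.5% of all genes, with a median of -0.27, and 11 fell and 5 rose without LLC alone replicate 3. Stbd1, which binds glycogen, fell from 20.9 to 5.90 FPKM (-1.85, adjusted p = 2.11e-06), while the endoplasmic reticulum receptors Fam134b, Fam134a and Sec62 fell by 0.79, 0.69 and 0.60.

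**Figure D5:**
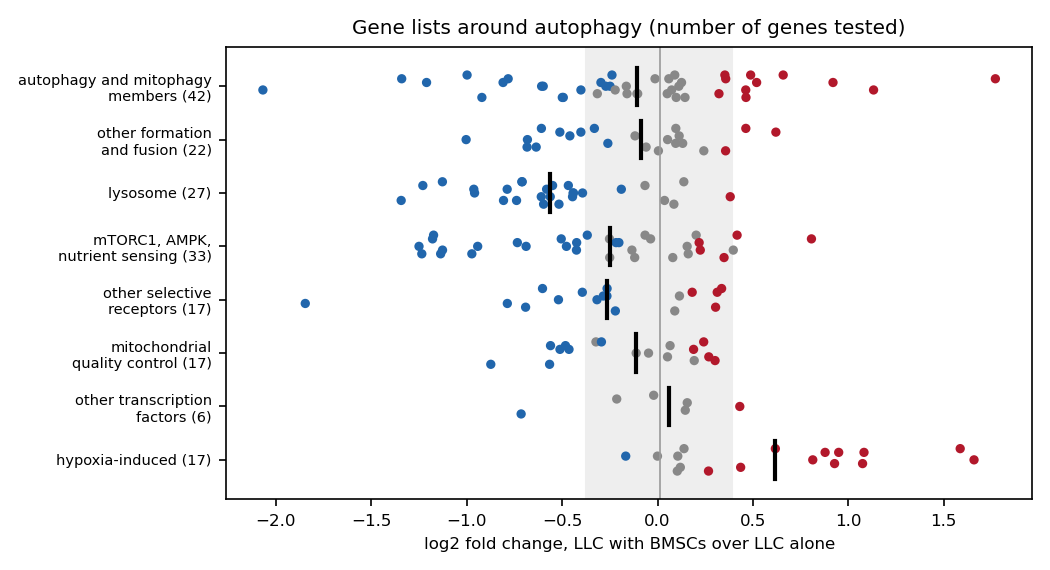
Log2 fold change (x axis, LLC with BMSCs over LLC alone) of each tested gene of the members and of 7 related lists, with blue for called lower, red for called higher and grey for not called, a black bar at each list's median, and a grey band from the lower to the upper quartile of all 13353 genes tested. The medians of the members (-0.11) and of most lists lie inside the band, that of the lysosomal genes (-0.56) lies below it and that of the hypoxia-induced genes (0.62) above it.

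Genes of other cell types also differed between the sorted groups. All 9 tested markers of BMSCs and fibroblasts were higher in LLC with BMSCs. They summed to 365 to 430 CPM in LLC alone and 792 to 844 CPM in LLC with BMSCs. Col3a1 and Eng held the most counts of that list (16670 and 4618 normalized counts on average). Both were already abundant in LLC alone, at 41.2 and 28.7 FPKM, so the sum cannot be read as RNA of added cells alone. Dcn and Col1a1 were near 0 in LLC alone (0.11 and 0.0133 FPKM) and at 6.307 and 2.003 FPKM in LLC with BMSCs. Thy1, which was not tested, was at 0 in LLC alone and near 0 in the other group. All 7 tested neutrophil markers were higher, at 0.479 to 0.780 CPM and 21.2 to 23.8 CPM, with Mpo and Elane at 0 in LLC alone. The neutrophil marker Ly6g was near 0 in both groups (0.08 and 0.0467 FPKM) and was not tested. Of 7 tested macrophage markers 5 were higher and 1 lower, at 24.1 to 29.0 CPM and 30.5 to 33.2 CPM, with Adgre1, C1qa and C1qc at 0 in LLC alone. C1qa, C1qb and C1qc were not tested and averaged no more than 0.0533 FPKM in LLC with BMSCs. Cd14, the most abundant macrophage marker by FPKM, was not called (9.49 and 10.1 FPKM), and Cd68 was lower (5.55 and 3.03 FPKM). Erythroid markers summed to 8.75 to 9.17 CPM and 11.5 to 12.4 CPM, with 4 of 6 tested higher and 1 lower and Epb42 at 0 in LLC alone. Endothelial markers summed to 1.07 to 1.32 CPM and 1.40 to 1.81 CPM with 0 of 2 tested called, and no lymphocyte marker passed the filter (0.349 to 0.395 CPM and 0.225 to 0.381 CPM). Both tested epithelial keratin genes, Krt8 and Krt18, were higher. The 7 genes of that list summed to 158 to 179 CPM and 188 to 196 CPM, nearly all of it from Krt8. The part of these cells in the results on the members was not tested. In such bulk libraries, fewer cells of a type and less RNA per cell cannot be told apart.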

How the data were processed

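RFP-positive LLC cells were sorted from tumours that grew from LLC cells without or with BMSCs, with 3 libraries per group (LLC alone, LLC with BMSCs) as the sample titles give them. According to the paper, poly-A mRNA was sequenced as paired-end reads on the BGISEQ-500, while the labels name Illumina protocols. The submitters' processing notes name HISAT, StringTie, Cufflinks, GATK and the build mm8, with neither versions nor roles. Whether strand was used is not given in the sources used here. The authors deposited estimated counts per gene, not normalized, of which 21.9% to 23.2% in a library were not whole, as in programs that divide reads among several matches. The authors also deposited FPKM values per gene and per transcript, used here for levels only.

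Members were matched by symbol. The members, the gene lists and the rule for naming their genes were chosen with earlier results of these data known. The rule names all members, with each library's FPKM for those called with a log2 fold change of at least 0.5 in size, and up to 4 called genes of each list by size of change that average 100 normalized counts or more. Outside the rule, the hypoxia-induced genes that did not rise are named too. Estimated counts were rounded and tested with edgeR 4.0.16 in R 4.3.3 (TMM, filterByExpr, quasi-likelihood test, Benjamini-Hochberg, threshold 0.05) over 6 libraries. The script was tested on simulated data. FPKM on a log2 scale entered only alternatives (limma 3.58.1, pseudocounts 1 and 0.1). The smallest two-sided p of an exact permutation test here is 0.1. Exon overlaps were read from GENCODE on GRCm38 and promoter windows from RefSeq on GRCm38.p6. No coordinates of the authors' build were used.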

Additional observations from a re-analysis of the deposited data

How the results depend on the processing

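Over 15 alternative fits, which were DESeq2 1.42.0, no TMM, other count filters, limma on log2 FPKM, the replicate block, the length trend removed, close libraries summed and each library left out, 23 of the 27 called members kept their direction and their call. The other 4 lost the call only with close libraries summed (LLC alone 1 and 2, LLC with BMSCs 2 and 3), namely Atg13 (-0.23, adjusted p = 0.0918), Atg4b (-0.26, 0.0819), Atg4d (0.31, 0.0533) and Calcoco1 (-0.23, 0.0896), a fit with fewer samples. No called member turned direction. The counts of members were 10 higher and 13 lower with close libraries summed, 13 and 18 with the length trend removed, and 11 to 12 and 16 to 18 over the 6 fits that leave out a library. Thresholds alone moved them to 2 higher and 3 lower at a log2 fold change of at least 1, and to 6 higher and 10 lower at an adjusted p under 0.001. The median of the members ran from -0.14 to -0.05, and was -0.05 without LLC alone replicate 1, without LLC alone replicate 2 and with close libraries summed. Besides the values given above for the length trend, the log2 fold change of Map1lc3a was -0.61 with limma on log2(FPKM + 1).

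Of the 15 members not called, 8 were called in at least 1 alternative. Leaving out LLC alone replicate 1 called Atg101 (-0.33) and Atg10 (-0.41), and leaving out LLC alone replicate 3 called Atg2b (-0.27), Nbr1 (-0.15) and Pink1 (0.15). The length trend removed called Becn1 (0.16), Atg4a (0.21), Nbr1 (-0.21) and Atg2b (-0.45). Among members not called, the direction turned with the length trend removed for Ulk1 (-0.10), Atg101 (0.033) and Ambra1 (-0.066), and with close libraries summed for Atg2b (0.0054). It turned for Wipi2 without TMM (0.0075), with limma on log2(FPKM + 0.1) (0.0079) or log2(FPKM + 1) (0.0076), and without LLC alone replicate 2 (0.014) or LLC with BMSCs replicate 1 (0.013), and it ran from -0.045 to 0.014 over the fits that leave out a library. Atg16l2 turned with limma on log2(FPKM + 0.1) (-0.22) and on log2(FPKM + 1), where it was called lower (-0.16, adjusted p = 0.0436), and the cause was not tested.

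No pairing of the samples by replicate number was seen. Libraries of the same number deviated from their group means with correlations of 0.0762, -0.106 and 0.0572 over 13353 genes. Only 2 of 6 libraries correlated best with their own number. With so few libraries, this cannot show whether those of the same number were handled together. With the replicate block, 11 members were higher and 17 lower, the added call being Atg10 (-0.31, adjusted p = 0.0374), and the median was -0.10. Over the same fits, chosen for the lists after seeing the data, 21 to 23 lysosomal genes were called lower and 10 to 12 hypoxia-induced genes higher, whereas genes of mitochondrial quality control ran from 1 to 6 higher and from 6 to 10 lower. Of the 26 genes that the rule on size of change named from the lists, only Epg5 lost its call (-0.55, adjusted p = 0.0792, close libraries summed).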
